A study of Homo sapiens with 6 samples.

Results

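The LINC genes are the genes whose symbol in the series table is LINC followed by a number, or begins with LINC and a hyphen (LINC-PINT, LINC-ROR). This rule reads the symbol only, but the table holds no member at 0 in all 6 libraries. Each member thus had a count above 0 in at least 1 library, and LINC genes that are not listed are not covered. It took 578 of the 21134 genes of the table, or 2.73%. The symbol stands for long intergenic noncoding RNA. By RefSeq names, 572 members were matched and 6 were not. Among the matched members, 547 are classed as long noncoding RNA (lncRNA), 23 are now classed as protein coding and 2 are transcribed pseudogenes, and 71 carry another symbol today. The name "intergenic" did not hold for every member, because the body of 64 of the 572 members, or 11.2%, overlaps that of a protein-coding gene in the GRCh38.p14 annotation. Another 131 lie within 10000 bases of a coding gene. Their transcripts had a median length of 1791.5 bases in the deposited files, from 129 to 11868.

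An lncRNA is transcribed and usually spliced like an mRNA, but it is not known to be translated. Such RNAs tend to be made at low levels and in few cell types, and some act on the gene beside them while others work elsewhere in the nucleus or cytoplasm. In the heart, several lncRNAs are transcribed next to genes of the contractile machinery. A symbol of this kind is a provisional name, and some LINC transcripts were later found to encode small proteins.

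Cardiomyocytes differentiated from the human stem cell line H9 (hiPSC-CMs in the labels, although H9 is an embryonic line) were compared in 3 groups of 2 libraries each. The control cells received neither alcohol nor losartan. The alcohol group was given 100 mM alcohol over 24 h, and the co-treated group the same alcohol dose and time plus 1 μM losartan, a blocker of the angiotensin II type 1 receptor. No group received losartan alone, all cells came from this 1 line, and the labels do not say whether replicates were separate cultures or differentiations, so p-values measure the spread between these libraries, which may be technical. Expected counts, which are the authors' estimates of the reads of each gene, summed to between 4898287 and 5051448 per library. All 10 cardiomyocyte markers were detected in every library, with summed FPKM (counts per gene length and library size) of 28819.6 and 29590.0 in control, 20206.6 to 27195.1 in alcohol and 23138.3 to 25567.2 in co-treated libraries. Of the markers of other cells, those of smooth muscle summed to 1689 to 1926, 722 to 1451 and 991 to 1036 FPKM, those of fibroblasts to between 383 and 489.7, and those of endoderm, pluripotent, endothelial and neural cells to at most 52.8, with SOX1 not listed or at 0.

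Sequences are shown for 2 sets of members on which the results turn. The first set is the coding part of the 3 members among the 10 highest that are now known to encode small proteins. LINC00998 is SMIM30, a small membrane protein, on the minus strand of chromosome 7 (chr7:113116718-113118554). LINC01420 is NBDY, a microprotein that binds the mRNA decapping machinery, on the plus strand of chromosome X (chrX:56729243-56819179). LINC00493 is SMIM26, a small protein of mitochondria, on the plus strand of chromosome 20 (chr20:18567432-18569611). Their coding sequences, from GENCODE 29 on GRCh38, are 180, 207 and 288 bases long, with capitals at the start and stop codon, and hold 59, 68 and 95 codons before the stop.
LINC00998: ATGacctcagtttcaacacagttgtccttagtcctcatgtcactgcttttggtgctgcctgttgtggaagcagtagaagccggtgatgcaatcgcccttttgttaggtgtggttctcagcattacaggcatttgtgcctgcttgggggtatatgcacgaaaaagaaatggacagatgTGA
LINC01420: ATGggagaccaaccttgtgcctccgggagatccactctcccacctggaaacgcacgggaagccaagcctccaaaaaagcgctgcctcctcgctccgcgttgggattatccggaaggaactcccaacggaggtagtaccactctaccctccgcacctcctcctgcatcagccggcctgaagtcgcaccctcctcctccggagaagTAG
LINC00493: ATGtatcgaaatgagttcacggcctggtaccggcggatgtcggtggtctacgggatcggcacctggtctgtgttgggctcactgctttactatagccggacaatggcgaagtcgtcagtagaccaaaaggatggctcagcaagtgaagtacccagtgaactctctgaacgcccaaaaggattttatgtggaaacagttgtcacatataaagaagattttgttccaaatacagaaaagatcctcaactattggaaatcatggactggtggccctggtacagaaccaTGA
These stretches made up 17.0%, 28.7% and 51.3% of the transcript length in the files.

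The second is the promoter of LINC00881, the member with the highest level and the only one called in a comparison by the main test. LINC00881 is an lncRNA known from cardiomyocytes, with NCBI Gene number 100498859, on the plus strand of chromosome 3 (chr3:157089881-157101135). Its promoter, 250 bases before to 50 after the start, is chr3:157089631-157089930 on the plus strand (RefSeq, GRCh38.p14). Capitals mark the letters of heart factor motifs.
LINC00881 promoter: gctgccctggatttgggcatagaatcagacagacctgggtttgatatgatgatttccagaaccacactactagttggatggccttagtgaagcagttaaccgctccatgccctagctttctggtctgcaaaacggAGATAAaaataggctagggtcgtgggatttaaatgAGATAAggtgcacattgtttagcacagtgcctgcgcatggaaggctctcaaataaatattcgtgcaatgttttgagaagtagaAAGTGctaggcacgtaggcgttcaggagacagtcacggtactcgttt
Searched on both strands, the GATA letters AGATAA began at -115 and -80 relative to the start. The letters AAGTG of NKX2-5 began at 4. GATA4 and NKX2-5 are transcription factors of heart development. The TBX5 letters, which are AGGTGT, were not in this window, nor was a MEF2 motif or the TATA box as spelled TATAAA. Of all 27305 promoters of this length, 10.5% held the GATA letters, 43.4% those of NKX2-5, 11.4% those of TBX5, 2.83% those of MEF2 and 11.95% the TATA box letters, so a match describes the letters, and binding was not measured.

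Detection was first described per library. A count above 0 was found for 436 and 419 of the 578 members in the control libraries, for 427 and 441 in the alcohol libraries and for 428 and 433 in the co-treated libraries. The groups overlapped, and the shares lay between 72.5% and 76.3%. Each member was found in at least 1 library, so these are shares of the LINC genes listed, not of all human LINC genes. Among other protein-coding genes of the table the shares were 91.6% to 92.5%, and among other lncRNAs 79.6% to 81.7%. At least 3 counts, the most that a gene at 0 could still hold at this depth (0.594 to 0.612 CPM, here counts scaled to the raw library total, without TMM), were reached by 301 to 317 members per library. At least 10 counts were reached by 186 and 184 members in control, 170 and 188 in alcohol and 199 and 191 in co-treated libraries. These limits cover counting error only.

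**Figure D1:**
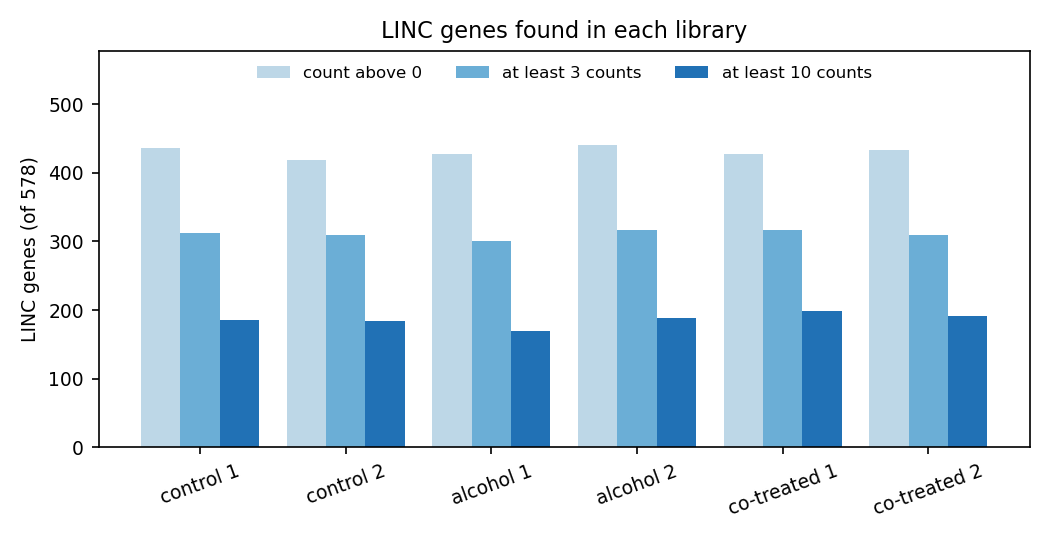
LINC genes (of 578) found in each of the 6 libraries at a count above 0, of at least 3 and of at least 10. The bars of each threshold are of similar height in all libraries, with 419 to 441, 301 to 317 and 170 to 199 genes.

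Detection in every library was less common. In all, 309 members had a count above 0 in all 6 libraries, 217 had at least 3 counts in all 6 and 145 at least 10. By contrast, 86 members were detected in 1 library only, with a median of 1 count there and at most 3. Counts stayed under 10 in every library for 338 members, or 58.5%, and under 3 for 165. Thus most of the LINC genes of the table were listed on a few reads. Low counts were also common among other lncRNAs, where 1203 of 2405 stayed under 10 in every library. Enough counts to be tested were found for 211 members (36.5%, against 43.3% of other lncRNAs and 70.6% of all genes). Of the tested members, 195 are lncRNAs and 12 are now classed as protein coding.

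By the rule for detection by group, 2 members had at least 3 counts in both libraries of a group and 0 in both of another. LINC01213, on chromosome 3, had 3 and 3 counts in control, 2 and 0 in alcohol and 0 and 0 in co-treated libraries. LINC01091, on chromosome 4, had 0 and 0 counts in control, 3 and 3 in alcohol and 0 and 2 in co-treated libraries. Neither exceeded the 3 counts that a library at 0 allows, so a difference was not detectable at this depth, and no fold was computed.

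The levels of the LINC genes were low. Over the 6 libraries the median of the mean FPKM was 0.442 among the 547 LINC lncRNAs and 1.21 among the 23 LINC genes now classed as coding. It was 0.79 among 2405 other lncRNAs, 1.17 among 827 antisense RNA genes and 6.03 among 16742 other protein-coding genes. The LINC lncRNAs were thus at the low end of these classes, which is given as a description, since genes are not replicates. A mean of at least 1 FPKM was reached by 218 members and of at least 10 FPKM by 34. Together the members took 0.322% to 0.382% of the counts of a library, and the 10 members with the most counts held 44.6% to 46.6% of these. Counts that were not whole, in at least 1 library, were found for 305 members, or 52.8%, against 32.2% of other protein-coding genes. Such counts can arise where reads were shared between genes by the authors' program.

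**Figure D2:**
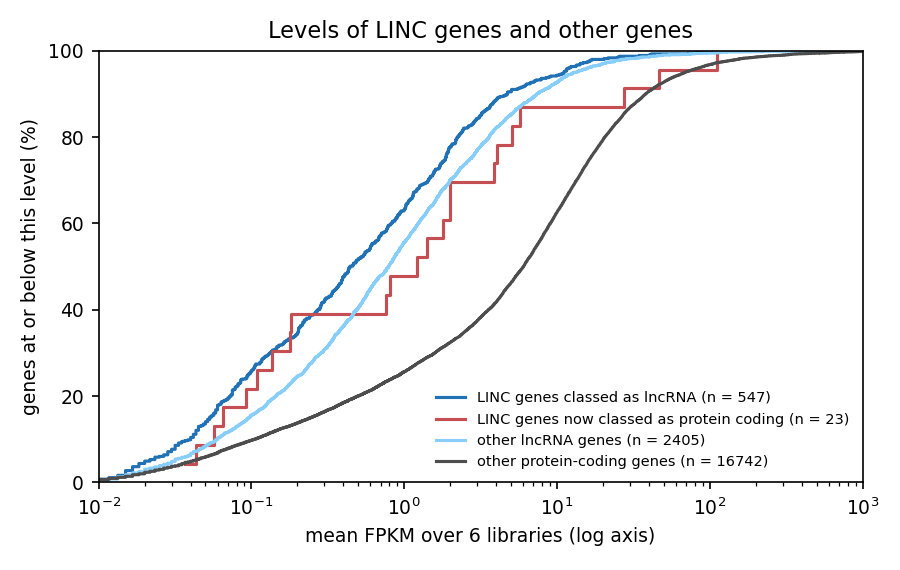
Share of genes (%) at or below each mean FPKM over 6 libraries (log axis), for 4 classes of genes. The curve of the LINC lncRNAs lies furthest to the left over most of its range (median 0.442 FPKM), and that of other protein-coding genes to the right (median 6.03 FPKM).

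The 10 members with the highest mean FPKM were described next. LINC00881 ranked first in mean level and its values are given below with its comparisons. LINC00998 (SMIM30) followed with 104 and 121 FPKM in control, 109.7 and 106 in alcohol and 104 and 123 in co-treated libraries. The groups of LINC00998 overlapped in all comparisons. LINC01405 stood at 57.8 to 117 FPKM and is also described below. LINC00504, on chromosome 4, had 81.6 and 76.2, 67.1 and 87.3, and 92.8 and 86.7 FPKM in control, alcohol and co-treated libraries. The neighbouring ranks among these did not separate beyond the spread of their libraries, since LINC00504 and LINC01405 overlapped, and so did LINC00504 and LINC00506 (62.0 to 77.8 FPKM).

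A lower set of 5 members stood between 23.02 and 60.8 FPKM. LINC01420 (NBDY) had 44.9 and 38.8 FPKM in control, 42.1 and 49.5 in alcohol and 42.2 and 60.8 in co-treated libraries. LINC01578 is now named CHASERR, an lncRNA known to restrain its neighbour, the chromatin remodeller gene CHD2. It had 30.5 and 29.3, 32.5 and 38.6, and 37.2 and 39.1 FPKM. Both treated groups lay above control, with an adjusted p of 0.675 for alcohol and 0.397 for co-treated cells (edgeR quasi-likelihood test). CHD2, which lies 1577 bases away, stood at 18.2 to 20.8 FPKM, with log2 fold changes of -0.09 and 0.002 in the same comparisons. LINC00493 (SMIM26) ranged from 23.02 to 36.01 FPKM. The other 2 were LINC00649 (32.3 to 45.6 FPKM) and LINC01623 (33.3 to 45.3 FPKM).

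**Figure D3:**
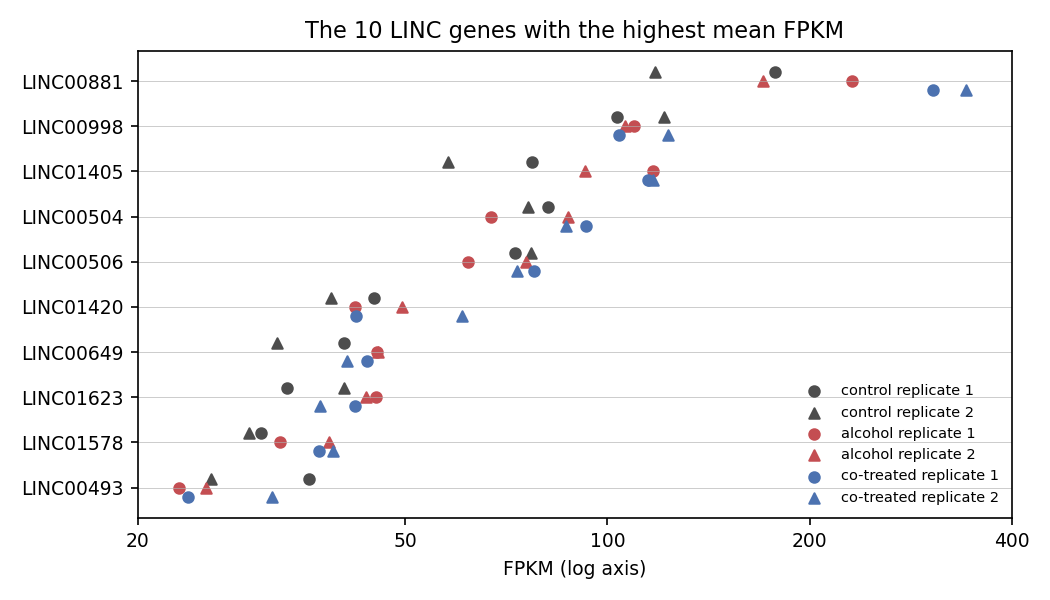
FPKM (log axis) of the 10 LINC genes with the highest mean, with a point for each of the 6 libraries. The co-treated libraries of LINC00881 (305 and 342) lie above its other libraries, while the libraries of LINC00998 lie close together (104 to 123).

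The question of which LINC genes moved with alcohol and losartan was then addressed, beginning with the members known from heart or skeletal muscle. Of 4 such genes chosen for the list, 2 were in the table under their LINC symbol, and both were tested. LINC00881 stood at 178 and 118 FPKM in control libraries, 232 and 170.5 in alcohol libraries and 305 and 342 in co-treated libraries. The group means were 148 ± 42.6, 201 ± 43.2 and 324 ± 26.4 (SD, n = 2 each), and both co-treated libraries were above all 4 others. The underlying counts were 689 and 454, 897 and 641, and 1145 and 1319. LINC00881 rose in co-treated against control cells, with a log2 fold change of 1.08 (SE 0.197, adjusted p = 0.0350, edgeR quasi-likelihood test with Benjamini-Hochberg adjustment). Against alcohol alone the log2 fold change was 0.67 (SE 0.194, unadjusted p = 0.00406, adjusted p = 0.722), and between alcohol and control, whose libraries overlapped, it was 0.41 (SE 0.198, adjusted p = 0.474). The latter values depended on single libraries. Against alcohol the value was 0.44 without alcohol replicate 2. For alcohol against control it was 0.14 when either alcohol replicate 1 or control replicate 2 was left out. It was 0.65 with alcohol replicate 2 left out, and 0.77 with control replicate 1 left out. In bulk RNA, more cells that make a transcript and more RNA per cell cannot be told apart.

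The call on LINC00881 was close to the threshold. Without control replicate 2 its log2 fold change was 0.80 and the adjusted p 0.162, without co-treated replicate 1 the adjusted p was 0.157, and without co-treated replicate 2 it was 0.361. Over all alternatives the log2 fold change stayed between 0.80 and 1.43, and the adjusted p ran from 0.00682 to 0.361, with the call lost in 7 of 14. Marker sums also differed between co-treated and control libraries. The lower cardiomyocyte sum rested mainly on MYL7 and NPPA (log2 fold changes -0.52 and -0.70). MYH6, ACTN2, TNNI3 and TNNT2 were also below 0 (-0.69, -0.34, -0.28 and -0.18). Values of MYL2, MYH7, RYR2 and TNNI1 were above 0 (0.78, 0.21, 0.29 and 0.05), and none of the 10 cardiomyocyte markers was called. Of the 4 smooth muscle markers, whose sum was lower, the smooth muscle actin gene ACTA2 was called (log2 fold change -1.25). The sum of the 4 endothelial markers was 4.65 and 4.92 FPKM in control and 7.97 and 8.96 in co-treated libraries, with KDR at a log2 fold change of 0.86 (adjusted p = 0.0502, edgeR). That of the 6 endoderm markers was 38.1 and 39.2 FPKM in control and 49.8 and 51.2 in co-treated libraries, with none called. The part of cell makeup in the result was not tested.

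LINC00880, an lncRNA gene on the opposite strand (chr3:157081667-157123002), holds the whole of LINC00881 within its body, with 11255 bases in common. It had 43.0 and 52 counts in control, 46 and 31.0 in alcohol and 26 and 31.6 in co-treated libraries. Both co-treated libraries were below both control libraries and overlapped with the alcohol libraries, with a log2 fold change against control of -0.73 (SE 0.314, unadjusted p = 0.0365, adjusted p = 0.350, edgeR). Whether counting used strand is not given in the sources used here, so reads of the 2 genes may not be fully told apart. CCNL1, the nearest coding gene at 41986 bases from LINC00881, had 13.7 to 18.6 FPKM and a log2 fold change of -0.04 (SE 0.156) in co-treated against control cells.

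LINC01405, now named VHRT, lies at chr12:110936602-110937448, 15153 bases from MYL2, the gene of the ventricular regulatory myosin light chain. It had 134 and 100 counts in control, 203 and 156 in alcohol and 193 and 202 in co-treated libraries. All 4 treated libraries were above both control libraries. The log2 fold change was 0.60 in alcohol against control (SE 0.194, unadjusted p = 0.00880, adjusted p = 0.263), 0.73 in co-treated against control (SE 0.193, unadjusted p = 0.00225, adjusted p = 0.123) and 0.13 in co-treated against alcohol (SE 0.185, adjusted p = 0.962, edgeR), so no difference passed the adjustment. With a library left out, the alcohol value ranged from 0.39 to 0.85. Its neighbour MYL2 varied more between replicates, with 2139 and 863 FPKM in control, 2610 and 821 in alcohol and 2478 and 2862 in co-treated libraries. For MYL2 the log2 fold change was 0.17 (SE 0.439) with alcohol and 0.78 (SE 0.441) with co-treatment against control. In control and in alcohol, replicate 2 was the lower library for both genes, by a larger ratio for MYL2 than for LINC01405.

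**Figure D4:**
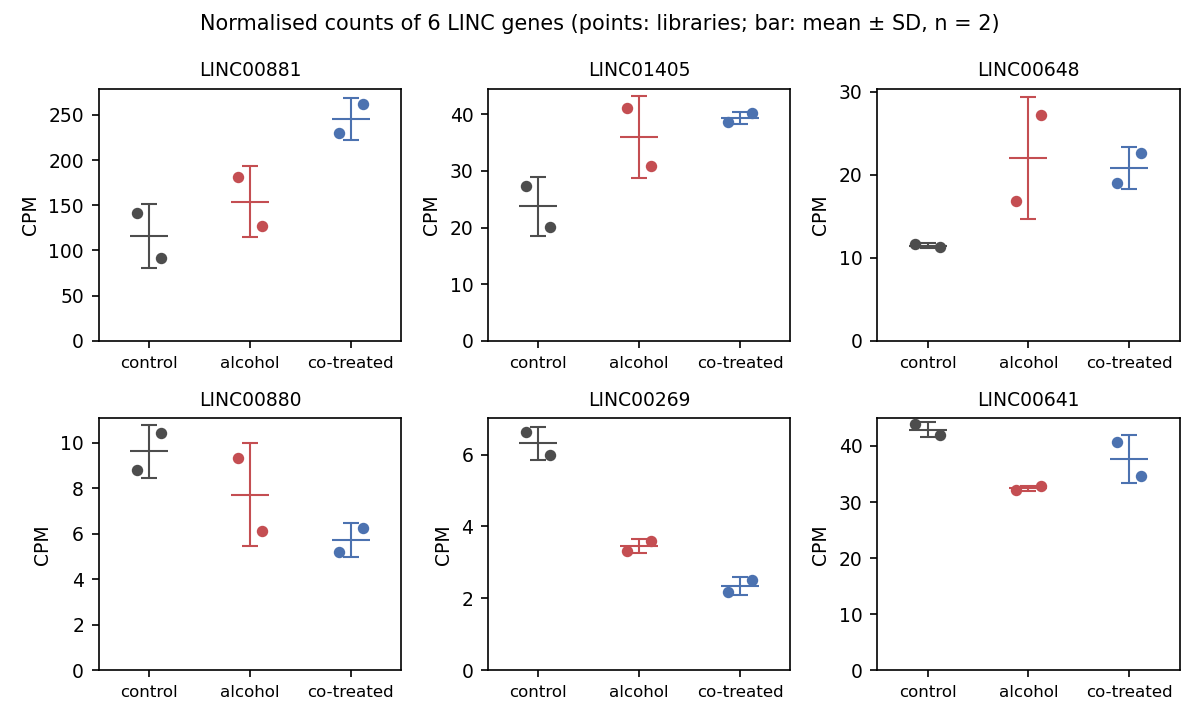
CPM of 6 LINC genes in each library (points), with the mean and SD (bar and whiskers, n = 2) for control, alcohol and co-treated cells. LINC00881 is highest in the co-treated libraries, LINC01405 and LINC00648 lie above control in all treated libraries, and LINC00269 lies below control in all treated libraries.

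In alcohol against control, 0 of the 211 tested members were called by edgeR, where 0.0603% of all 14926 tested genes were called higher and 0.0067% lower. DESeq2 and limma called 0 members as well. At an unadjusted p under 0.05, 8 members were higher and 8 lower (5.27% and 5.78% of all genes), and the groups did not overlap for 41 higher and 43 lower members (22.0% and 21.8% of all genes). These shares of the members, 3.79% in each direction and 19.4% and 20.4%, lay near or below the background. The 16 members past the unadjusted threshold became 7 without alcohol replicate 2 and 9 without control replicate 1. A log2 fold change above 0 was found for 104 of 211 members, or 49.3%, against 49.4% of all genes. The median log2 fold change was -0.02 over the members and -0.003 over all genes. Over the members it was 0.07 when alcohol replicate 1 was left out and -0.09 when alcohol replicate 2 was. Leaving out either control replicate also brought it above 0 (0.01).

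The smallest p among higher members with no overlap was that of LINC00648, an lncRNA gene on chromosome 14 (chr14:47764953-47795014). It had 57.0 and 56.0 counts in control, 83.0 and 138 in alcohol and 95.1 and 114 in co-treated libraries, so that the treated libraries were all above control. The log2 fold change with alcohol was 0.94 (SE 0.248, adjusted p = 0.172), and that of co-treated against control was 0.86 (SE 0.250, adjusted p = 0.159, edgeR). Without alcohol replicate 1 the alcohol value was 1.26 with an adjusted p of 0.0206, but without alcohol replicate 2 it was 0.55 with an adjusted p of 0.904. Over the alternatives the adjusted p ran from 0.0206 to 0.904. MDGA2, its nearest coding gene, was at 0.31 to 0.83 FPKM. LINC00889, for which no RefSeq entry was matched, had 26.5 and 27.4, 48.8 and 59.6, and 35.5 and 39.8 counts, with a log2 fold change with alcohol of 1.02 (SE 0.286, adjusted p = 0.190). LINC01405 was the third.

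The lower members with the smallest p were LINC00641, LINC00346 and LINC00680. LINC00641, a broadly expressed lncRNA on chromosome 14, had 215 and 209 counts in control, 159 and 166 in alcohol and 203 and 174 in co-treated libraries. Its log2 fold change with alcohol was -0.40 (SE 0.152, adjusted p = 0.340), and the co-treated values lay between those of the other groups. LINC00346, now PRECSIT, had 94.0 and 78.4 counts in control and 57.7 and 61.5 in alcohol, with a log2 fold change of -0.55 (SE 0.231, adjusted p = 0.401). LINC00680 had 55.0 and 45.2 counts in control and 29.2 and 34.2 in alcohol, with a log2 fold change of -0.69 (SE 0.288, adjusted p = 0.402). The body of LINC00680 lies within that of the pseudogene LINC00680-GUSBP4, which had 5.46 and 0.9 counts in control and 17.4 and 15.4 in alcohol, so the split of reads between them is uncertain. None of these passed the adjustment by edgeR.

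In co-treated against alcohol cells, which compares alcohol with and without losartan, 0 of 211 members were called by edgeR (0.0067% of all genes in each direction), by DESeq2 or by limma. At an unadjusted p under 0.05, 8 members were higher and 2 lower (2.84% and 2.71% of all genes). The groups did not overlap for 54 higher members, or 25.6%, and for 22 lower members, or 10.4%, where the shares of all genes were 17.3% and 16.2%. The median log2 fold change was 0.09 over the members, 0.04 over 1042 other tested lncRNAs and 0.002 over all genes. Of the 211 members, 127 were above 0, or 60.2%, against 50.3% of all genes. The members' median was 0.21 without alcohol replicate 2 and 0.04 without co-treated replicate 1, and without alcohol replicate 2 the 10 members past the unadjusted threshold became 6.

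LINC00881 had the smallest p among the higher members of this comparison, followed by LINC00908 and LINC01447. LINC00908 had 28.0 and 22.2 counts in control, 15.0 and 17.8 in alcohol and 42.2 and 30.0 in co-treated libraries, with a log2 fold change of 1.12 against alcohol (SE 0.369, adjusted p = 0.836). Its alcohol libraries were the lowest of the 6. LINC01447, on chromosome 7, had 57.4 and 45.8, 57.3 and 40.2, and 72.1 and 96.7 counts, with a log2 fold change of 0.79 (SE 0.268, adjusted p = 0.836, edgeR). Its control and alcohol libraries overlapped and the co-treated ones were above both.

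The lower members with the smallest p were at a few counts. LINC00824 had 19.1 and 0 counts in control, 17.1 and 8.08 in alcohol and 0 and 2.8 in co-treated libraries. Both co-treated libraries were within the 3 counts that a 0 allows and the control libraries were at opposite ends, so no fold is given. LINC01125, now the coding gene C2orf92, had 15.6 and 19.1 counts in alcohol and 7.03 and 9.11 in co-treated libraries, with a log2 fold change of -1.12 (SE 0.504, adjusted p = 0.896). It shares 104 bases with ACTR1B on the opposite strand. LINC01186, on chromosome X, had 11 and 12, 13 and 7, and 5 and 2 counts, with a log2 fold change of -1.49 (SE 0.709, adjusted p = 0.899, edgeR).

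In co-treated against control cells, 1 of 211 members was called higher by edgeR, LINC00881, and 0 lower, where 0.214% of all genes were called higher and 0.147% lower. DESeq2 and limma called 0. At an unadjusted p under 0.05, 12 members were higher and 3 lower (6.26% and 6.37% of all genes), and the groups did not overlap for 55 higher and 29 lower members (21.6% and 21.5% of all genes). As shares of the members these were 5.69% and 1.42%, and 26.1% and 13.7%. The median log2 fold change was 0.09 over the members, 0.06 over other tested lncRNAs and -0.002 over all genes. Of the 211 members, 125 were above 0, or 59.2%, against 49.8% of all genes. This lean of the members was not stable, because their median was -0.02 without co-treated replicate 1, 0.14 without co-treated replicate 2 and 0.13 without control replicate 1. Without control replicate 2, the 15 members past the unadjusted threshold became 9. This comparison shares its control libraries with the first and its co-treated libraries with the second, so their values are not independent.

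**Figure D5:**
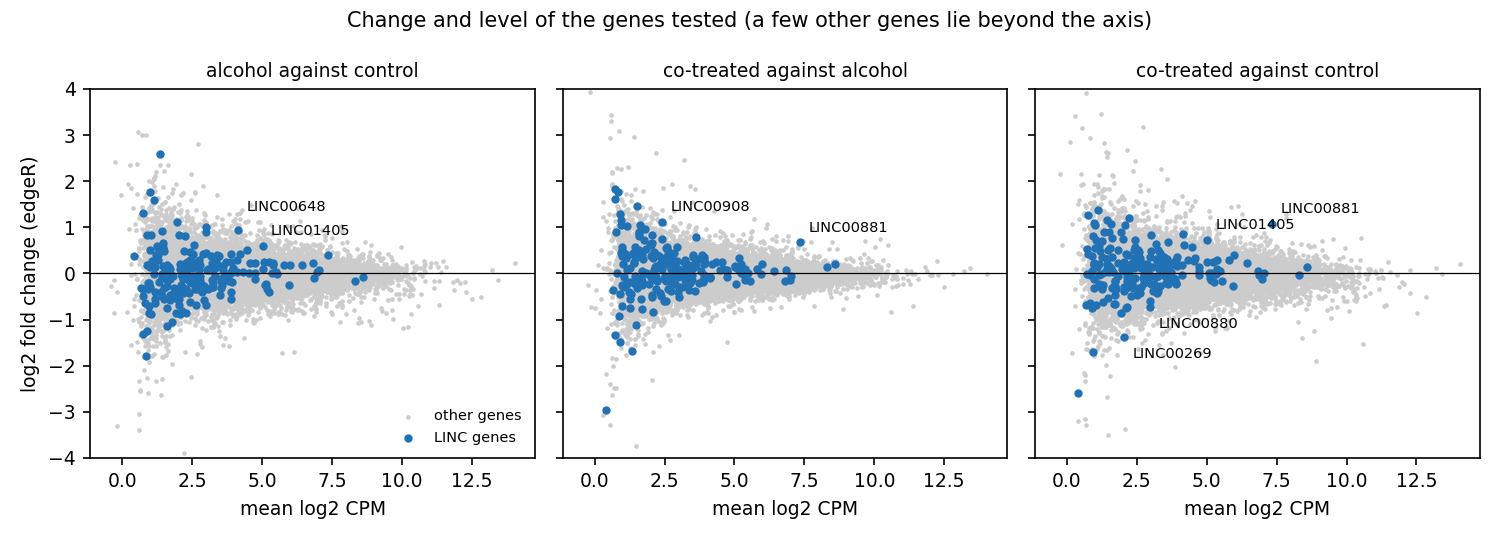
Log2 fold change (edgeR) against the mean log2 CPM of all tested genes (grey) and the 211 tested LINC genes (blue) in the 3 comparisons. Most LINC genes lie at the left, at low CPM, where the fold changes scatter widely, and LINC00881 stands at 1.08 in co-treated against control cells. All tested LINC genes lie within the vertical axis and a few other genes beyond it.

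The 3 higher members with the smallest p in this comparison were LINC00881, LINC01405 and LINC00648, described above. The 3 lower members past an unadjusted p under 0.05 were LINC00269, LINC01186 and LINC00880. LINC00269, on chromosome X (chrX:69179557-69209924), had 32.5 and 29.8 counts in control, 16.4 and 18.2 in alcohol and 10.9 and 12.7 in co-treated libraries. The 3 groups did not overlap and both treated groups were below control. The log2 fold change was -1.38 in co-treated (SE 0.396, unadjusted p = 0.00391, adjusted p = 0.153) and -0.88 in alcohol against control (SE 0.376, adjusted p = 0.408, edgeR). Its nearest coding gene PJA1, a ubiquitin ligase gene at 14104 bases, stood at 47.4 to 54.9 FPKM, with a log2 fold change of -0.21 (SE 0.118) in co-treated against control cells. LINC01186 had a log2 fold change of -1.70 (SE 0.695, adjusted p = 0.326), and LINC00880 is described above.

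The lists of LINC genes grouped by what they are known for were then read. They were matched by LINC symbol, so a gene that the table lists under another symbol counts as absent. For small proteins, 7 of 10 genes were in the table and 4 were tested (LINC00998, LINC01420, LINC00493 and LINC00116), with none called and none past an unadjusted p under 0.05 in the 3 comparisons. LINC00116 is MTLN, a protein of the inner mitochondrial membrane, and stood at 4.42 to 6.57 FPKM. The 3 members that were not tested were close to 0, with LINC00961 (SPAAR) at 3 counts in 1 control library and 0 elsewhere, LINC01314 (CTXND1) at 1.0 to 5.01 counts and LINC00675 (TMEM238L) at 0 or 1. For the broadly expressed genes, 9 of 12 were in the table and all 9 were tested, and none was called. At an unadjusted p under 0.05 (edgeR), 1 was higher and 1 lower in alcohol against control. In co-treated against control 3 were higher and 0 lower, and in co-treated against alcohol 0 passed. LINC00667 stood at 10.5 to 11.9 FPKM and LINC00674 at 10.9 to 12.3 FPKM. LINC01003, on chromosome 7, had 20 and 31, 34 and 62, and 44 and 49 counts, with log2 fold changes of 0.89 and 0.84 against control (SE 0.351 and 0.352, adjusted p = 0.370 and 0.337, edgeR). LINC00339 had 74 and 66, 99 and 90, and 99 and 118 counts, and its log2 fold change in co-treated against control cells was 0.61 (SE 0.202, adjusted p = 0.226). LINC00467 stood at 7.71 to 16.5 FPKM. Its log2 fold change in co-treated against control cells was 0.64 (SE 0.294, adjusted p = 0.391, edgeR). LINC00665 ranged from 6.32 to 10.2, LINC00662 from 2.72 to 4.01 and LINC00969 from 0.36 to 3.58 FPKM, and LINC00641 is described above.

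The LINC genes of other cell types were near the limit of detection. For pluripotent stem cells, 5 of 6 genes were in the table and only LINC00458 was tested, with 9.75 and 13.9 counts in control, 7.11 and 6.37 in alcohol and 11.2 and 3.52 in co-treated libraries and an adjusted p of at least 0.667 in each comparison (edgeR). LINC-ROR, which is known to modulate reprogramming to pluripotency, had 1.01 to 4.91 counts, LINC00678 had 2.11 to 6.24, and LINC00545 and LINC01108 had at most 1.0 and 2.0. For endoderm or liver, 3 of 5 genes were in the table. LINC01554 had 15.9 to 24.4 counts over the 6 libraries, LINC01018 had 1.04 to 4.5, and LINC00261, the lncRNA beside the endoderm factor gene FOXA2, had 0 to 2.02. Apart from LINC01554 and LINC00458, these members stayed under 10 counts in every library.

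For the p53 and DNA damage response, 2 of 3 genes were in the table. LINC-PINT, a p53-induced RNA, had 18.6 and 25.5 counts in control, 21.0 and 27.3 in alcohol and 15.3 and 11.6 in co-treated libraries. Its co-treated libraries were the lowest, with log2 fold changes of -0.83 against alcohol (SE 0.416, adjusted p = 0.900) and -0.75 against control (SE 0.419, adjusted p = 0.492, edgeR). LINC01021 is PURPL, which is known to restrain p53 levels, and had 40.7 and 28.2, 26.9 and 35.8, and 33.0 and 28.0 counts, with overlap in all comparisons. Of 3 genes reported under hypoxia or stress, only LINC00152 (CYTOR) was tested. It had 40.5 and 19.3, 43.6 and 24.3, and 26.2 and 18.9 counts, so that its replicates differed by about as much as its groups. LINC00473 and LINC01116 had at most 3.0 and 5.98 counts. Apart from the heart or skeletal muscle list, which holds LINC00881, none of the lists held a called gene.

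Changes of members beside those of their nearest coding gene were compared last. Both were tested in 154 pairs, of which 18 overlap. Across these pairs the correlation of the log2 fold changes was 0.112 in alcohol against control, -0.05 in co-treated against alcohol and 0.133 in co-treated against control cells, given as a description over genes that share libraries. Taken over the 3 groups, the spread between replicates of the members was near that of coding genes of the same level, but not in every group. At 20 CPM and more, the median absolute log2 difference between replicates was 0.147 for 30 members and 0.145 for 8130 coding genes. Under 2 CPM it was 0.560 and 0.576 for 30 members and 302 coding genes, with 0.356 and 0.576 in co-treated libraries. At 5 to 20 CPM it was 0.273 for 83 members and 0.253 for 3439 coding genes, with 0.332 and 0.239 in control libraries.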

How the data were processed

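RNA was sequenced in 6 libraries of stem cell-derived cardiomyocytes, 2 per group. The authors deposited an expected count, an FPKM and a transcript length per gene. The submitters' processing notes name HISAT2 2.0.4, Bowtie2 2.2.5, RSEM 1.2.12 and the build hg38, while their settings and the use of strand are not given in the sources used here. Expected counts deposited by the authors are estimates, and 33.9% are not whole. FPKM deposited by the authors is scaled by gene length and library reads. A gene missing from the table of a library was set to 0. Symbols were matched by NCBI Gene number to RefSeq GRCh38.p14.

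Rounded expected counts of all genes were tested with edgeR 4.0.16 in R 4.3.3 (quasi-likelihood F test, two-sided, TMM, filterByExpr, all 6 libraries in 1 fit), with Benjamini-Hochberg adjustment over 14926 genes at 0.05. CPM in the text is scaled to the TMM library size, and a fold change is the fitted log2 ratio of the groups. The standard error was derived from the fold change and its F value. As a check of the code only, the fit was run on counts simulated from its own fitted dispersion trend, without a replicate effect. An exact permutation test of 2 against 2 libraries cannot go below p = 0.333 and was not used. Alternatives were DESeq2 1.42.0, limma 3.58.1 on log2(FPKM + 1) and log2(FPKM + 0.1), where a fold understates the change of low genes, other size factors, filters and library sets, each library left out, a replicate block and the members not classed as noncoding RNA left out. Members, lists and tests were chosen with earlier results of these data known.

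Named genes are the 10 members with the highest mean FPKM, those called, the 3 higher and 3 lower members per comparison with the smallest p and no overlap in CPM, those with at least 3 counts in both libraries of a group and 0 in both of another, and the listed genes, each with its nearest coding gene. No motif share over members is given, because only 403 of 578, under 80%, have a promoter sequence in the table used.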

Additional observations from a re-analysis of the deposited data

How the results depend on the processing

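No member was called in co-treated against alcohol cells under any of the 15 alternatives run. In alcohol against control, leaving out each library gave 0 to 1 members called, and the other alternatives 0. In co-treated against control, 0 members were called under DESeq2, under limma with either pseudocount and with no expression filter, and 0 to 1 with a library left out. The members' median log2 fold change ranged from -0.0885 to 0.0681, 0.0399 to 0.209 and -0.0212 to 0.141 with a library left out, in alcohol against control, co-treated against alcohol and co-treated against control, and it was 0 in all 3 comparisons with no expression filter, where members with few counts enter. LINC01405 in co-treated against alcohol ranged from -0.0618 to 0.344 with a library left out. Of 274 values of 20 pairs of a named gene and a comparison, 265 kept their direction and side of the threshold, 7 lost the call (all LINC00881), 1 gained it (LINC00648) and 1 turned (LINC01405). The pairs were chosen mainly because their groups did not overlap in CPM, and only LINC00881 in co-treated against control was called. Little change of direction or side was therefore possible, so these counts do not measure stability. The causes were not tested.

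Deviations from the group means correlated by 0.114, -0.02 and 0.04 between same-numbered libraries of the 3 pairs of groups. These correlations are over all tested genes, so they cannot exclude a shared replicate effect on single genes. With the replicate block the members called were 0, 0 and 1, and over all genes the calls went from 10 to 48, from 2 to 5 and from 54 to 136 (72, 5 and 128 with DESeq2). Detection in all 6 libraries gave 217 to 289 members under stricter limits, against 309. Low depth limits what can be seen of the 367 members that were not tested.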

Other observations

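LINC01001 had 13.8 and 0 counts in control, 44.3 and 42.9 in alcohol and 0 and 27.5 in co-treated libraries. It was named after its values were seen. Its counts were not whole in all 4 libraries above 0, and so were those of LINC00824. In both genes, libraries of the same group lay at 0 and at more than 10 counts, and the cause was not tested.

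The chromosomes with the most LINC genes were 13 with 62, 1 with 50 and 2 with 48. These are counts without a test, not set against chromosome size or all genes.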
